A study of Rattus norvegicus with 6 samples.

Results

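The basic leucine zipper (bZIP) transcription factors were described in cultured ventricular heart muscle cells of newborn rats given perhexiline or vehicle. Members were the genes whose family annotation in the deposited table reads TF_bZIP, 46 of the 34257 genes listed. Of these, 44 were protein-coding genes with a symbol, 1 was a pseudogene and 1 a long intergenic RNA. The annotation files some bZIP genes elsewhere, so 10 relatives (Cebpa, Cebpb, Cebpd, Cebpe, Cebpg and Cebpz, Bach1, Bach2, Fosb and Crebl2) were set beside the members and are named as relatives. Cebpz is among them by its symbol only, since its product is not a bZIP protein. One group of 3 libraries came from cardiomyocytes exposed to perhexiline at 1 µM for 24 h, and the other group of 3 libraries from cardiomyocytes labelled vehicle, whose solvent the labels do not name. Perhexiline, used against angina, blocks carnitine palmitoyltransferase, through which long-chain fatty acids enter mitochondria. The labels do not say which strain was used or whether replicates were separate cultures or animals. The p-values set the group difference against the scatter of these 6 libraries within their groups. That scatter may be technical, so the p-values may not extend to other cultures or animals. The values are FPKM, fragments scaled to gene length and to a factor per library. Comparisons of levels between genes rest on the annotated gene lengths, such as 744 bases for Fosl2 and 3089 for Jun.

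bZIP proteins bind DNA as dimers through a basic region, and the leucine zipper that follows decides which partners pair. The ATF and C/EBP branches serve the integrated stress response, in which phosphorylation of the initiation factor eIF2 favours translation of ATF4, and ATF4 then induces CHOP (Ddit3) and ATF3. JUN and FOS proteins form the dimer AP-1, which answers growth factors, cytokines and stretch in the heart. NRF2 (Nfe2l2) and NRF1 (Nfe2l1) bind antioxidant elements together with small MAF proteins, BACH1 competes for the same sites, and the PAR members follow the circadian clock. Much of their control lies in translation, splicing, cleavage and stability of the protein, none of which was measured in these libraries.

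With perhexiline, 8 bZIP genes rose and none fell, among 36 members that could be tested. The stress factors Atf3, Ddit3 and Atf4, the AP-1 genes Jun, Jund, Fosl1 and Fosl2, and the small MAF gene Maff were those that rose, by 1.24-fold (Atf4) to 2.36-fold (Atf3) as ratios of mean FPKM. Cebpb and Cebpd, 2 of 8 tested relatives, rose as well and none of the relatives fell. A gene was tested where at least 3 libraries reached an FPKM of 1, and was called at an adjusted p under 0.05 (limma, Benjamini-Hochberg over all tested genes). The same test called 3.55% of all 13460 tested genes higher and 3.11% lower, and the members' share of 22.2% higher stands beside the 3.55%. That background includes many low genes, while 29 of the 36 tested members averaged over 10 FPKM. In a fit limited to a mean of at least 5 FPKM, 11 of 31 members were higher, against 6.28% of all genes tested. These were the 8 with Atf5, Creb1 and Junb. Log2 differences, on the log2(FPKM + 1) scale, were above 0 in 34 of 36 members, against 52.9% of all tested genes, and their median was 0.19 against 0.01. Every perhexiline library lay above every vehicle library for 18 of 36 members and below for 0, where 17.0% and 14.9% of all tested genes did so. An unadjusted p under 0.05 was reached by 15 of 36 members and by 3460 of all 13460 tested genes. Among 841 tested genes with another transcription factor family label, 33 rose and 13 fell, and 3.92% of them were higher; the difference between families was not tested. All 8 called members had at least 1 FPKM in each vehicle library, so none passed the filter through the perhexiline libraries alone.

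The count depended on single libraries. Leaving out vehicle replicate 1 left 3 called members, and leaving out vehicle replicate 2 left 2. The share of all tested genes called higher in these fits was 0.763% and 0.756%, against 3.55% in the main fit. Dropping perhexiline replicate 2 gave 2 and dropping perhexiline replicate 3 gave 1, while 10 members passed without vehicle replicate 3. Of all tested genes, 0.633%, 0.521% and 3.19% were called higher in these fits. The 9 that passed without perhexiline replicate 1 were 8 higher and 1 lower, the lower one being Jdp2, with 3.16% of all tested genes higher. Of all tested genes the test called 896, of which 53.3% were higher. Under upper-quartile and total-fragment scaling 42.4% and 71.0% of calls were higher, with 7 and 9 members called, all higher. The share of all tested genes called higher under these scalings was 2.73% and 6.02%.

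**Figure D1:**
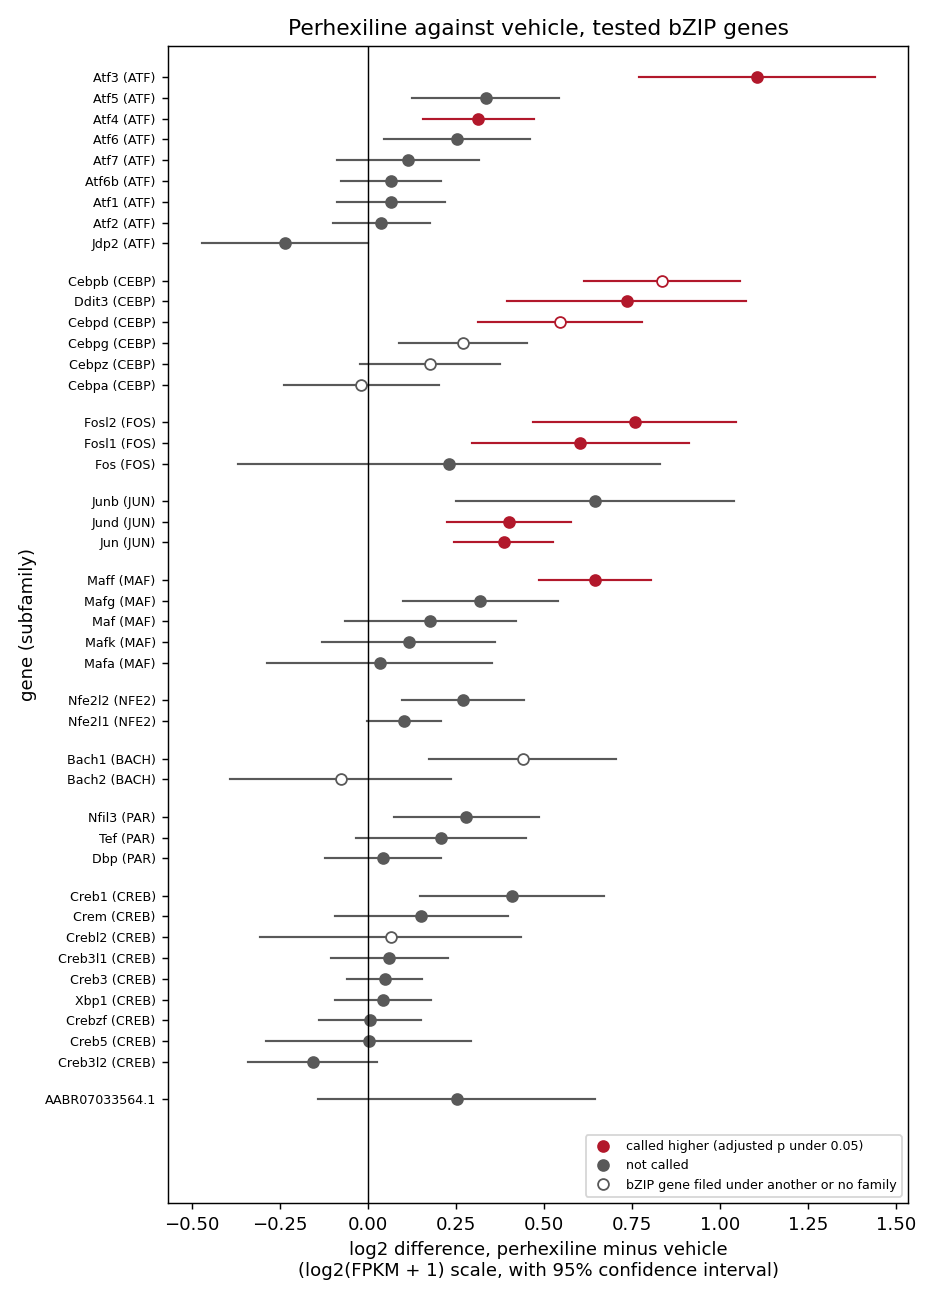
Log2 differences between perhexiline and vehicle (x axis, log2(FPKM + 1) scale, 3 libraries per group) with 95% confidence intervals for 35 of the 36 tested members (filled) and 8 tested relatives (open), arranged by subfamily on the y axis. Called genes are red, and all of them lie to the right of 0, with Atf3 farthest at 1.11. The members to the left of 0 are Jdp2 and Creb3l2. Cebpz is drawn among the relatives by its symbol only and is not a bZIP gene.

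The promoters of 34 members could be looked up in RefSeq (build GRCr8), among them 6 of the 8 that rose. Atf3 and Jun, which also rose, had no matched promoter and were not searched, and neither was Fos. The 250 bases before each annotated start were searched on both strands for the cyclic AMP response element TGACGTCA, the AP-1 site TGACTCA, the amino acid response element core TGATGCAA, the antioxidant element TGACNNNGC, the PAR site TTACGTAA and the C/EBP site TTGCGCAA. The full cyclic AMP response element, which ATF, CREB and some JUN dimers bind, was found for Maff, Jund and Crem, 3 of 27 tested members with a promoter (11.1%), against 1.78% of all 27457 genes with a promoter and 3.01% of the tested genes. The AP-1 site was found for Ddit3 and Atf5 (2 of 27, 7.41%, against 3.40% of tested genes). These windows are shown because Maff and Jund rose and carry the element that other members of the family bind, and because Crem, which carries it too, did not pass the test. Each is written 5′ to 3′ on the gene's own strand, with the matched letters in capitals.
Maff (chr7:112792710-112792769, plus strand): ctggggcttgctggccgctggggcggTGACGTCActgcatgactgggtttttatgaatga
Jund (chr16:18769959-18770018, minus strand): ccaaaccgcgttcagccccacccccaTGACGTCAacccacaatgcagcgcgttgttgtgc
Crem, the most upstream of its starts with a match (chr17:58984715-58984774, plus strand): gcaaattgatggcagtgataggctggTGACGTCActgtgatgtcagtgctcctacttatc
Ddit3, AP-1 letters (chr7:65001445-65001486, plus strand): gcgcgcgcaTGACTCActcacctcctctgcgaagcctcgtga
Atf5, AP-1 letters (chr1:104434901-104434959, minus strand): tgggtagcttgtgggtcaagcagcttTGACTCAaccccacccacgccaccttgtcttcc

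The Maff element begins 51 bases before the start and that of Jund 221 bases before it. The shorter core TGACG, which the full element contains, was found for 13 of 27 tested members (48.1%) and 29.8% of tested genes. The amino acid response element core was found for 1 tested member, Jdp2 (3.70%, against 0.433% of tested genes), the antioxidant element for 4 (Creb1, Crem, Fosl1 and Mafk; 14.8% against 13.5%), and the PAR and C/EBP sites for 0. A match of letters is a description of the window and was not tested for binding.

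Atf4, the central activator of the integrated stress response, was the most abundant bZIP messenger, at 167, 143 and 156 FPKM with vehicle and 188, 204 and 187 FPKM with perhexiline. The groups did not overlap, and the log2 difference was 0.31 ± 0.067 (SE, n = 3 per group, limma adjusted p = 0.039). Ddit3, which encodes CHOP, a dominant partner of C/EBP proteins and a driver of apoptosis, stood at 35.2, 40.9 and 53.4 FPKM with vehicle and 64.2, 78.9 and 72.1 FPKM with perhexiline. Its log2 difference was 0.73 ± 0.15 (SE, limma adjusted p = 0.0332), and its vehicle libraries were the more scattered. The Ddit3 gene overlaps the end of Mars, the methionyl-tRNA synthetase gene of the opposite strand, by 72 bases, and whether counting used the strand is not stated. Mars stood at 83.1 ± 2.05 and 85.8 ± 1.45 FPKM (SD, n = 3 each; limma adjusted p = 0.539).

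Atf3, a stress-induced gene whose protein represses or activates according to its partner, had the largest difference of the family. It stood at 6.52, 5.22 and 4.38 FPKM with vehicle and 10.7, 13.8 and 13.5 FPKM with perhexiline (log2 difference 1.11 ± 0.14, limma adjusted p = 0.0125). Atf5, another target and relative of ATF4 that serves the mitochondrial stress response, stood at 60.1, 58.8 and 70.5 FPKM and then at 72.1, 85.9 and 81.5 FPKM. The 2 groups of Atf5 were separate, but it missed the threshold (limma adjusted p = 0.0661, unadjusted p = 0.00637). Limma-voom called Atf5 higher. Atf4 lost its call in all 6 fits without 1 library (limma adjusted p 0.0583 to 0.130) and under upper-quartile scaling (0.0542). Ddit3 lost it without either of vehicle replicates 1 and 2 or perhexiline replicates 2 and 3 (up to 0.112), Atf3 lost it without perhexiline replicate 3 (0.0553), and Atf5 gained one without vehicle replicate 3 (0.034) or perhexiline replicate 1 (0.0478).

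The C/EBP relatives, partners of CHOP and ATF4, moved to different degrees. Cebpb, an activator of acute-phase and cytokine genes, stood at 58.0, 64.8 and 59.5 FPKM with vehicle and at 98.0, 126 and 105 FPKM with perhexiline (log2 difference 0.84 ± 0.095, limma adjusted p = 0.00928). Cebpd, its close functional partner in inflammation, went from 23.5, 24.2 and 23.2 FPKM to 35.1, 40.6 and 30.1 FPKM (0.55 ± 0.10, limma adjusted p = 0.0282). Both were higher in all 3 perhexiline libraries than in any vehicle library. Cebpg, a heterodimer partner of ATF4, stood at 18.2 ± 1.66 and 22.1 ± 1.23 FPKM (limma adjusted p = 0.0796), and Cebpa, which is tied to differentiation, at 4.23 ± 0.0888 and 4.18 ± 0.488 FPKM, with a 95% interval of the log2 difference from -0.24 to 0.20. Cebpb kept its call in all 6 fits without 1 library (limma adjusted p at most 0.0385), and Cebpd lost it without either of vehicle replicates 1 and 2 or perhexiline replicate 2 (up to 0.0847).

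**Figure D2:**
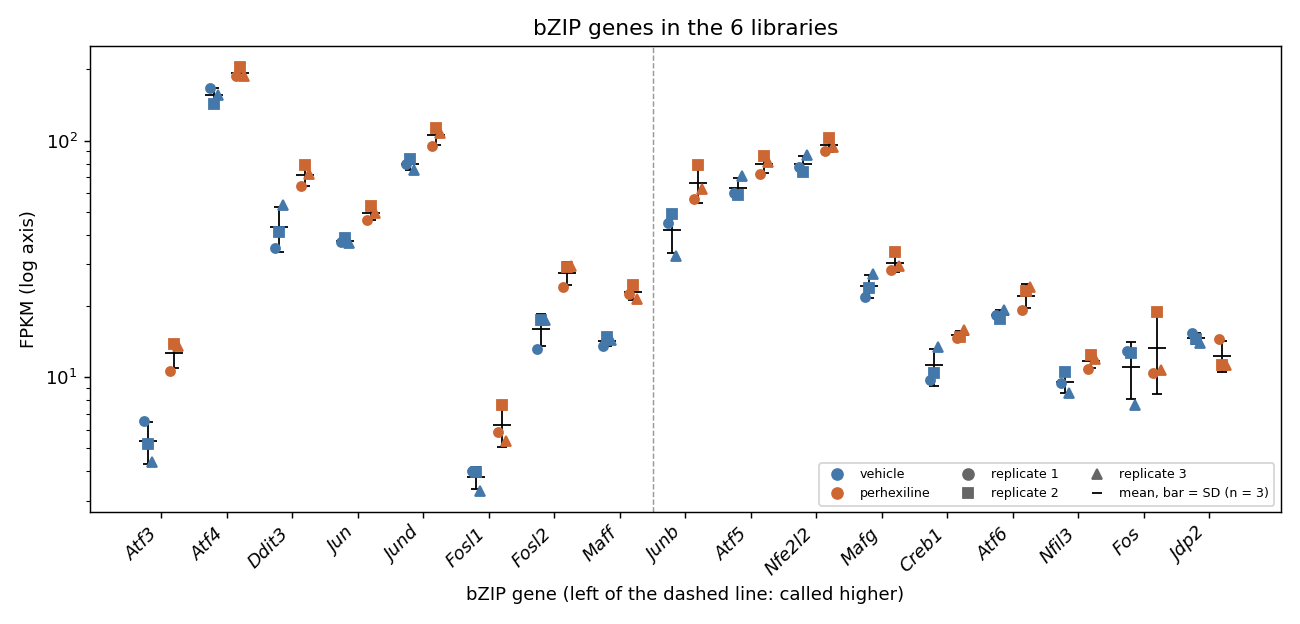
FPKM (y axis, log scale) of 17 bZIP genes (x axis) in each of the 3 vehicle and 3 perhexiline libraries, with the mean and SD of each group. The 8 genes left of the dashed line were called higher and show no overlap between groups; Fos and Jdp2, at the right, overlap.

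Among AP-1 genes, 2 of the 3 JUN members and 2 of the 3 FOS members rose. Jund, the JUN family member of resting cells, was the most abundant, at 80.0, 83.6 and 74.9 FPKM with vehicle and 94.9, 113 and 108 FPKM with perhexiline (log2 difference 0.40 ± 0.075, limma adjusted p = 0.0293). Jun, the stress kinase target at the core of AP-1, went from 37.2, 38.9 and 36.8 FPKM to 46.3, 52.9 and 49.2 FPKM (0.39 ± 0.060, limma adjusted p = 0.0203). Junb, often an antagonist of Jun, stood at 44.8, 49.0 and 32.4 FPKM and at 56.6, 78.8 and 62.5 FPKM. Its groups did not overlap and its log2 difference of 0.65 ± 0.17 exceeded those of Jun and Jund, but its replicates were wider apart and it missed the threshold (limma adjusted p = 0.0631). Junb passed under total-fragment scaling (limma adjusted p = 0.0426) and in limma-voom (0.0183) but in 0 of 6 fits without 1 library. Jun and Jund lost their calls without either of vehicle replicates 1 and 2 or perhexiline replicates 2 and 3 (limma adjusted p up to 0.0701 and 0.0972).

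Of the 3 FOS members, Fosl1 and Fosl2 rose, and differences between the members were not tested. Fosl2, a FOS-related gene that lacks the strong activation domain of Fos, went from 13.1, 17.4 and 17.4 FPKM to 24.2, 29.1 and 29.5 FPKM (log2 difference 0.76 ± 0.12, limma adjusted p = 0.022). Fosl1, a related gene that AP-1 itself induces, went from 4.02, 3.97 and 3.31 FPKM to 5.87, 7.66 and 5.35 FPKM (0.60 ± 0.13, limma adjusted p = 0.0408). Fos, the classical immediate early gene, stood at 12.9, 12.6 and 7.65 FPKM with vehicle and 10.4, 18.9 and 10.7 FPKM with perhexiline. Its groups overlapped, and the 95% interval of its log2 difference, -0.37 to 0.83, does not exclude a change as large as that of Fosl2. Fosb, a relative, was under the filter, at 1.44, 1.68 and 0.612 FPKM and then 0.571, 0.834 and 0.767 FPKM. Fosl1 lost its call in all 6 fits without 1 library (limma adjusted p 0.0614 to 0.105), and Fosl2 without vehicle replicate 2 or either of perhexiline replicates 2 and 3 (up to 0.0761).

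Jdp2, which encodes a repressor that pairs with JUN and ATF proteins, had the lowest log2 difference of the tested members, -0.23 ± 0.10 (SE, limma adjusted p = 0.197). It stood at 15.4, 14.5 and 13.9 FPKM with vehicle and 14.5, 11.2 and 11.3 FPKM with perhexiline, with perhexiline replicate 1 inside the vehicle range, and was called lower without that replicate (limma adjusted p = 0.0454). Set against Atf3 in the same library, Jdp2 was at 236%, 279% and 318% of its FPKM with vehicle and at 136%, 81.4% and 83.7% with perhexiline, a ratio described without a test. In the table's coordinates, whose build no label names, Jdp2 lies between Fos and Batf on chromosome 6, with 162761 bases from the end of Fos and 57426 bases to the start of Batf. Another pair of neighbours is Atf3 and Batf3 on chromosome 13, 92865 bases apart. The BATF genes, which encode lymphoid inhibitors of AP-1, were under the filter in these cultures, with Batf3 at 0.547, 0.328 and 0.179 FPKM and then 0.579, 1.60 and 0.431 FPKM.

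Of the small MAF genes, which supply the DNA-binding partner of NRF1, NRF2 and BACH proteins, Maff rose. It stood at 13.6, 14.8 and 14.3 FPKM with vehicle and 22.4, 24.6 and 21.4 FPKM with perhexiline. Its log2 difference of 0.65 ± 0.068 had the lowest adjusted p of the family (limma adjusted p = 0.00805), and it was the member that kept its call under all 13 alternatives, with 0.0336 as its highest value without 1 library. Mafg stood at 21.9, 23.7 and 27.2 FPKM and at 28.4, 33.7 and 29.4 FPKM (limma adjusted p = 0.084), and Mafk at 34.4, 35.7 and 26.9 FPKM and at 35.3, 36.5 and 32.9 FPKM (limma adjusted p = 0.529). Limma-voom called Mafg higher and did not call Mafk. Maff made up 19.4%, 19.9% and 20.9% of the summed FPKM of these 3 genes in the vehicle libraries and 26.1%, 25.9% and 25.6% in the perhexiline libraries, which did not overlap and were not tested.

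None of their tested larger partners was called by limma, while Nfe2l2 and the relative Bach1 had an unadjusted p under 0.05 and were called by limma-voom. Nfe2l2, which encodes NRF2, stood at 77.3, 73.9 and 86.8 FPKM with vehicle and 90.2, 103 and 94.3 FPKM with perhexiline, without overlap (log2 difference 0.27 ± 0.075, limma adjusted p = 0.0719). Nfe2l1, which encodes the proteasome regulator NRF1, was the more abundant of the pair, at 102 ± 3.21 and 109 ± 2.42 FPKM (SD, n = 3 each; limma adjusted p = 0.206). Bach1, a relative whose haem-sensing product represses antioxidant genes such as Hmox1, stood at 5.76, 6.18 and 6.76 FPKM and at 7.40, 9.13 and 10.1 FPKM (0.44 ± 0.11, limma adjusted p = 0.0608), while Bach2, known from lymphocytes, was at 1.16 ± 0.167 and 1.05 ± 0.192 FPKM. Nfe2l2 and Mafg passed without vehicle replicate 3 (limma adjusted p = 0.0393 and 0.0464) and Bach1 without perhexiline replicate 1 (0.0303).

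Maf and Mafa, large MAF genes known from lens and pancreas, were not called. Maf stood at 12.9 ± 1.68 and 14.7 ± 1.28 FPKM. Mafa was near the filter, between 0.745 and 1.11 FPKM, and the retinal gene Nrl was listed at 0 in all 6 libraries.

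None of the 8 tested CREB and XBP1 members was called by limma. An unadjusted p under 0.05 was reached by 1 of them (Creb1), which limma-voom called, and by 3460 of all 13460 tested genes. Creb3, a membrane-bound factor released by Golgi proteases, overlaps Tln1 and Gba2 of the opposite strand by 62 and 108 bases and stood at 94.1 ± 3.69 and 97.2 ± 0.655 FPKM, and Xbp1, whose spliced form drives the endoplasmic reticulum arm of the unfolded protein response, at 72.2 ± 4.41 and 74.3 ± 2.75 FPKM. The 95% interval of the Xbp1 log2 difference ran from -0.09 to 0.18, below the estimate for any called member, but the table gives 1 value per gene and does not separate the spliced form. Creb1, the cyclic AMP effector, stood at 9.75, 10.4 and 13.5 FPKM and at 14.6, 14.8 and 15.8 FPKM, without overlap (log2 difference 0.41 ± 0.11, limma adjusted p = 0.0705). Without vehicle replicate 3, the highest of its group, Creb1 passed (limma adjusted p = 0.0203). Crem, whose internal promoter makes the inducible repressor ICER, was at 2.77 ± 0.218 and 3.20 ± 0.368 FPKM, Creb3l1 at 25.1 ± 2.02 and 26.2 ± 1.35 FPKM, and Creb3l2, which acts in secretory cells, at 22.7 ± 1.29 and 20.3 ± 1.87 FPKM. Atf6, a membrane-bound sensor of the endoplasmic reticulum, stood at 18.3, 17.5 and 19.1 FPKM and at 19.2, 23.2 and 24.0 FPKM (limma adjusted p = 0.126, unadjusted p = 0.0226) and passed without perhexiline replicate 1 (0.0368), while its paralog Atf6b was at 35.8 ± 2.55 and 37.5 ± 0.81 FPKM. Atf1, Atf2 and Atf7, which bind cyclic AMP response elements constitutively, had log2 differences of 0.07, 0.04 and 0.11, with no call.

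None of the 3 tested genes of the PAR group was called by limma or limma-voom, and 1 (Nfil3) had an unadjusted p under 0.05. Nfil3 is grouped here with the clock-driven PAR genes but is not one of them. Tef stood at 19.5 ± 2.93 and 22.5 ± 1.27 FPKM, and Dbp, an output of the clock proteins CLOCK and BMAL1, at 18.7 ± 1.48 and 19.3 ± 0.793 FPKM with a 95% interval of the log2 difference from -0.12 to 0.21. Nfil3, a repressor that competes with them for the same sites, stood at 9.46, 10.5 and 8.57 FPKM and at 10.8, 12.4 and 12.0 FPKM, without overlap (log2 difference 0.28 ± 0.088, limma adjusted p = 0.0993). Hlf was under the filter, at 0.246 to 0.589 FPKM.

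Of the 46 members, 10 were not tested. Creb3l3, a liver factor, and Nrl were listed at 0 in all libraries. Batf, Batf2, Batf3, Creb3l4, Hlf, Nfe2, Nfe2l3 and the pseudogene AABR07031674.2 gave values up to 1.60 FPKM, reached by Batf3, each from at most 22 fragments in any library. In the fit with no filter on low values none of these 8 was called by limma. The long intergenic RNA AABR07033564.1, 199877 bases beyond Bach1 on chromosome 11, was tested and stood at 1.48, 1.31 and 2.54 FPKM and at 2.28, 2.25 and 2.21 FPKM (limma adjusted p = 0.388).

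Summed over all 46 members, bZIP messengers amounted to 1162, 1174.5 and 1176 FPKM in the vehicle libraries and 1332, 1478 and 1401 FPKM in the perhexiline libraries. JUN members summed to 162, 171 and 144 FPKM and to 198, 245 and 219.7 FPKM, and FOS members to 30.1, 34.0 and 28.4 FPKM and to 40.4, 55.6 and 45.5 FPKM. The ATF group went from 363, 340.3 and 364 FPKM to 403, 445 and 424 FPKM. These 3 sums did not overlap between groups, nor did those of the MAF, NFE2 and CEBP members. The CREB members, at 262, 268 and 253 FPKM and then 271, 267 and 271 FPKM, overlapped, as did the PAR members. As shares of the family total, JUN members made up 13.6% ± 1.21 and 15.7% ± 0.869 (SD, n = 3 each), Ddit3 3.69% ± 0.777 and 5.10% ± 0.261, and CREB members 22.3% ± 0.674 and 19.2% ± 1.12. These sums and shares are descriptions with no test. Within the perhexiline group, replicate 2 was the highest library for 7 of the 8 called members and for 19 of 36 tested members, 52.8% against 33.9% of all tested genes. Replicate 1 was the lowest for 24 of 36 (66.7%, against 36.3%).

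**Figure D3:**
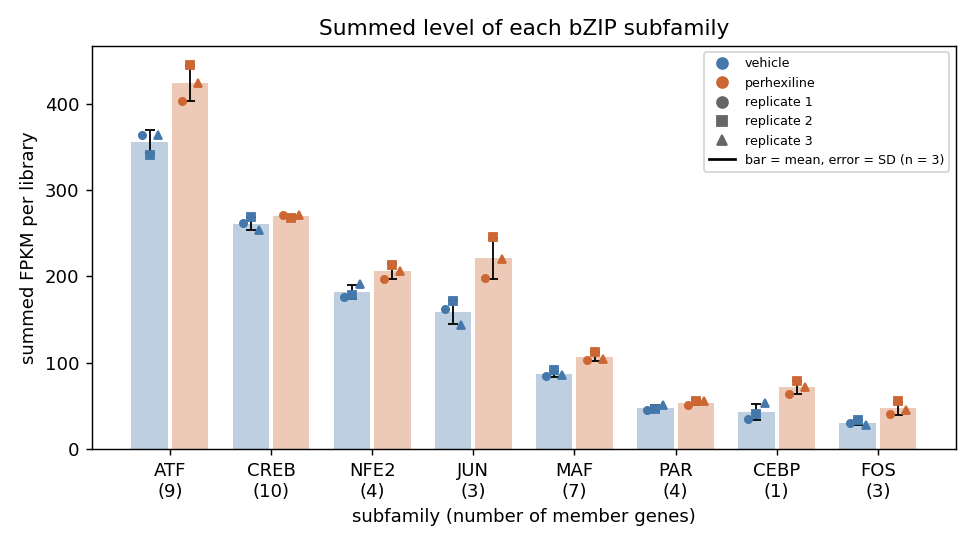
Summed FPKM (y axis) of the members of 8 bZIP subfamilies (x axis, with the number of member genes) in each library; bars are group means and error bars SD of 3 libraries. Under CEBP the only member by annotation is Ddit3. The libraries of the 2 groups separate for ATF, CEBP, FOS, JUN, MAF and NFE2 and overlap for CREB and PAR.

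Known targets of these factors were read from the same fit, with 3.55% of all tested genes higher and 3.11% lower as background. Of 27 tested targets of ATF4 and CHOP, 8 rose and none fell (list median 0.20). Ddit4, an inhibitor of mTORC1, rose 1.96-fold, the stress cytokine Gdf15 rose 3.56-fold, and the glutamine carrier Slc1a5 went from 10.4 ± 0.644 to 15.2 ± 0.376 FPKM (limma adjusted p = 0.0119). Of 14 tested C/EBP targets, 5 rose and none fell (list median 0.34), led by the iron-binding lipocalin Lcn2 (2.61-fold), the chemokine Ccl2 (2.46-fold) and the cytokine Il6 (from 0.502 ± 0.274 to 3.28 ± 0.856 FPKM). Il6 was under 1 FPKM in every vehicle library and so passed the filter only through the perhexiline libraries, which leaves 4 other rises. Of 20 tested AP-1 targets, 7 rose and 1 fell, with a median of 0.13. Of the rises 2, Il6 and Mmp3, passed the filter only through the perhexiline libraries, which leaves 5. Ccl2 went from 74.0 ± 10.9 to 182 ± 36.6 FPKM and the matrix inhibitor Timp1 from 69.7 ± 3.71 to 93.7 ± 4.75 FPKM, while the protease Plau went from 3.16 ± 1.07 to 1.05 ± 0.272 FPKM. Il6 and Ccl2 belong to both of these lists and are also targets of NF-kB.

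Of 15 tested CREB targets, 5 rose and 1 fell, with a median of 0.47, although Creb1 itself was not called. The prostaglandin synthase Ptgs2, which is also an AP-1 target, rose 3.29-fold, the coregulator Cited2 went from 65.3 ± 6.29 to 103 ± 12.6 FPKM, and the orphan receptor Nr4a1 rose 1.41-fold. The fall was that of Ppargc1a, the activator of mitochondrial biogenesis, from 30.5 ± 1.11 to 24.7 ± 1.52 FPKM (limma adjusted p = 0.0365). Of 21 tested immediate early genes outside the family, 7 rose and none fell (list median 0.39), among them Myc (2.19-fold), Klf6 (1.39-fold) and Ier3 (1.92-fold). Nr4a1 and Btg2 are counted among the rises of both this list and the CREB targets.

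Of 25 tested NRF2 targets, 4 rose (Ugdh, Sqstm1, Gclc and Hmox1) and 1 fell, the transporter gene Abcc4, with a list median of 0.13. Vehicle replicate 3 was the highest vehicle library for 23 of these 25 genes, against 35.6% of all tested genes. Hmox1, which encodes haem oxygenase, stood at 165, 156 and 279 FPKM with vehicle and 333, 447 and 419 FPKM with perhexiline, and Nqo1, a quinone reductase gene named after its values were seen, at 18.6, 19.0 and 41.0 FPKM and at 27.7, 36.6 and 38.5 FPKM. Clock genes other than PAR members had 1 rise among 16, that of the clock repressor Bhlhe40, from 53.0 ± 3.88 to 72.5 ± 3.64 FPKM. Of 25 tested targets of XBP1 and ATF6, none was called by limma. An unadjusted p under 0.05 was reached by 3 of the 25 and by 3460 of all 13460 tested genes. Limma-voom called 0 of these targets. Total-fragment scaling called 1 higher, where 6.02% of all tested genes were higher. The most abundant of the 25 targets, the chaperone gene Calr, stood at 342 ± 24.6 and 314 ± 29.5 FPKM (limma adjusted p = 0.371). Among 31 tested kinases, proteases and cofactors that control bZIP proteins, 1 rose and 1 fell, 3.23% each and near the background. Eif2ak2, the eIF2 kinase induced by interferon, rose 1.33-fold, and Prkaca, the catalytic subunit of protein kinase A, fell from 123 ± 7.13 to 97.2 ± 7.57 FPKM.

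The target counts also depended on the filter and on single libraries. The share of all tested genes called higher was 0.43% with no filter on low values. It was 0.521% to 0.763% without vehicle replicates 1 or 2 or perhexiline replicates 2 or 3. With no filter on low values, rises numbered 3 among ATF4 and CHOP targets, 4 among C/EBP targets, 4 among AP-1 targets, 2 among immediate early genes, 1 among NRF2 targets and 0 among CREB targets, clock genes and regulators, with no fall in any of these lists. Leaving out vehicle replicates 1 and 2 and then perhexiline replicates 2 and 3, one at a time, rises numbered 3, 3, 3 and 2 among ATF4 and CHOP targets, 4, 4, 3 and 3 among C/EBP targets, 4, 2, 3 and 2 among AP-1 targets, 1, 0, 3 and 0 among CREB targets, 2, 1, 3 and 1 among immediate early genes and 0, 1, 1 and 1 among NRF2 targets. Without perhexiline replicate 1 they numbered 3 among C/EBP, 4 among AP-1 and 7 among NRF2 targets, and without vehicle replicate 3 there were 9 NRF2 targets. The clock list had no call without vehicle replicate 2 or either of perhexiline replicates 2 and 3. The regulators had none without any of these or vehicle replicate 1, and the falls among AP-1 targets were then 0 as well. Among NRF2 targets and CREB targets no fall was called in any of the 6 fits without 1 library.

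**Figure D4:**
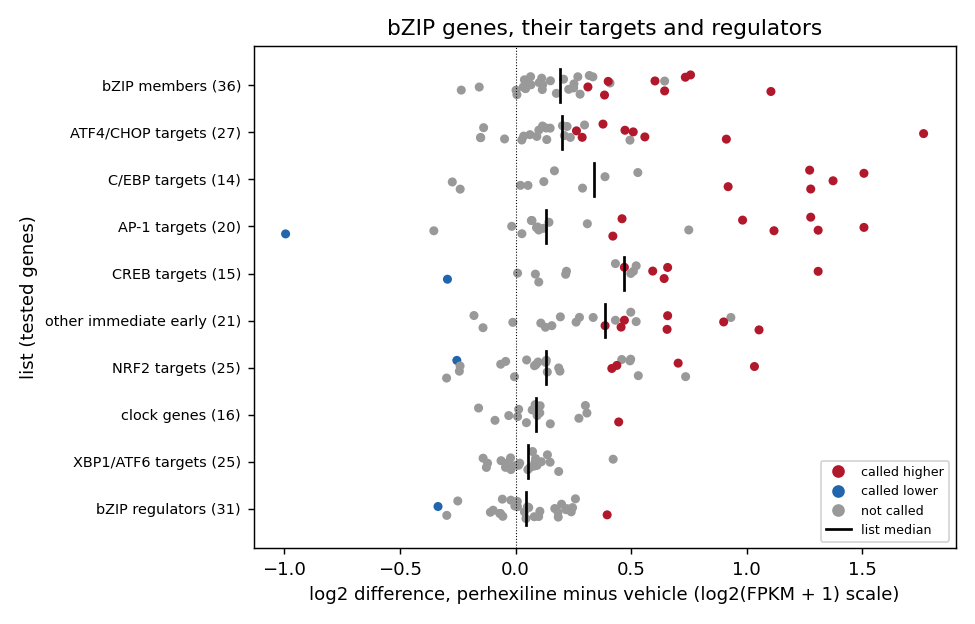
Log2 differences between perhexiline and vehicle (x axis, log2(FPKM + 1) scale) of tested bZIP members and of 9 lists of their targets and regulators (y axis, number of tested genes in brackets); each point is a gene, vertical spread within a row carries no value, and black bars are list medians. Called genes are red or blue; the list of XBP1 and ATF6 targets has none, and the bZIP row has 8 red points and no blue one.

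Markers of some cell types differed between the groups, and fewer cells of a type and less RNA per cell cannot be told apart in bulk samples. All 12 cardiomyocyte markers were detected and tested. They summed to 19917 to 24006 FPKM with vehicle and 16433 to 18911 FPKM with perhexiline, and 4 of them fell, against 0 in each fit without vehicle replicate 1, vehicle replicate 2 or either of perhexiline replicates 2 and 3, and 7 without vehicle replicate 3. As background, 3.11% of all tested genes were lower in the main fit. In the 4 fits where leaving out a library gave 0 falls, 35 to 61 genes were lower, of at least 13232 tested. Where 7 fell, 471 of all 13249 tested genes were lower. Of 14 macrophage and leukocyte markers, 13 were in the table and 8 were tested. The 13 summed to 86.4 to 93.6 FPKM with vehicle and 46.5 to 72.9 FPKM with perhexiline, and Cd3e was at 0. Of the 8 tested, 2 fell (0 in the same 4 fits). The 10 fibroblast markers had 2 rises and 1 fall with sums of 1077 to 1116 and 1039 to 1091 FPKM. Without vehicle replicate 2 there was 1 rise and no fall, and without vehicle replicate 1 or either of perhexiline replicates 2 and 3 there was no call. Sums were 790 to 1122 and 610.3 to 803 FPKM for 9 smooth muscle and pericyte markers and 17.7 to 21.0 and 19.2 to 20.4 FPKM for 8 endothelial markers. Of these, 8 and 5 were tested, and none was called by limma in the main fit. An unadjusted p under 0.05 was reached by 5 and 0 of them, and by 3460 of all 13460 tested genes. Limma-voom called 3 smooth muscle and pericyte markers lower and 0 endothelial ones, where 854 of all 13460 tested genes were lower. Schwann cell markers summed to at most 4.30 FPKM and epicardial and adipocyte markers to at most 18.1 FPKM. The part of cell composition in the bZIP differences was not tested.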

How the data were processed

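The authors deposited FPKM per gene and library, per the file headers, with gene length, position and a transcription factor family. HISAT2 2.0.5 is named, without a role, in the submitters' processing notes, as is DESeq2. The build, the annotation and the counting program were not given in the sources used here, nor was strand handling. FPKM times gene length was a whole multiple of 1 step per library for 100% of positive values (tolerance 0.01), which gave 13616252 to 16702523 fragments per library. The scaling factor implied by the step differed by -0.941% to 0.318% from the library's median ratio of fragments over genes. It did not follow total fragments: perhexiline replicate 2 had 14863929 fragments and a factor of 1.013, vehicle replicate 2 had 15241994 and 0.986. The FPKM as deposited were the main values, and the recovered fragments served an alternative. The test was limma 3.58.1 (R 4.3.3; two-sided, mean-variance trend, group as the only term) over the genes that reached 1 FPKM in 3 or more libraries. It used log2(FPKM + 1), which understates changes of low genes. The procedure was tested on simulated data. The ± after a mean FPKM is the SD and after a log2 difference the SE, with n = 3 per group. Folds are ratios of mean FPKM.

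The members, subfamilies and lists were chosen with earlier results of these data known. Of 277 listed symbols, 263 were in the table. The genes named were all called members, the 2 most abundant tested members per subfamily, members with an unadjusted p under 0.05, members listed at 0 or under the filter, and per list up to 3 called genes, lowest adjusted p first, or its most abundant gene if it had no call. Any other gene, among them Jdp2, Crem, Creb3l1, Creb3l2, Maf, Mafa, Atf1, Atf2, Atf7, Atf6b, all relatives, Mars, Hmox1, Abcc4, Plau and Ppargc1a, was chosen after their values were seen. Promoters are RefSeq's (GRCr8). The values of 1 tested member, which was not called, are not reported here. Alternatives were other scalings, filters and pseudocounts, limma-voom on recovered fragments, a replicate block and leaving out each library.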

Additional observations from a re-analysis of the deposited data

How the results depend on the processing

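Against 896 genes and 8 members called, there were 162 and 2 with no filter on low values, and limma-voom on recovered fragments called 1570 and 13. Of all tested genes, 0.43% and 5.32% were called higher in these fits. With the replicate number as a block, 173 genes and 2 members (Fosl2 and Maff) were called, and 0.75% of all tested genes were higher. The deviations of same-numbered libraries correlated at r = -0.0228, -0.101 and -0.0387, and those of differently numbered libraries at -0.0547 to 0.0924. These values show no sign of pairing by number but cannot tell whether libraries shared a culture or preparation. The fits without 1 library called 108 to 894 genes and 1 to 10 members. A pseudocount of 0.1, upper-quartile scaling, total-fragment scaling and a minimum mean of 5 FPKM gave 8, 7, 9 and 11 members. Over the single members and relatives, 493 of 561 alternative values stayed on the same side of the threshold, 46 lost a call, 22 gained one, and no called value changed sign. The causes were not tested. Members under the filter rest on few fragments, which limits what could be seen for them.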
